A study of Mus musculus with 12 samples.

Results

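The comparison of PBS at 3 h with PBS at 1 h follows macrophages that received no peptide, and it was chosen by sample name. It sets 3 arrays labelled PBS at 3 h against 3 labelled PBS at 1 h, 6 of the study's 12 arrays, over all 24675 named genes. The model behind the tests was fitted to all 12 arrays, so the other 6 also entered the estimate of each gene's spread. The study itself asked what hepcidin, the peptide hormone of iron balance, does to these cells, and PBS, the buffer without peptide, was its control at each time. Every group held wild-type bone marrow-derived macrophages from mice of 8 to 10 weeks; no strain is named. Marrow cells were grown for 7 days in 20% serum and 30% L cell-conditioned medium, the source of M-CSF. They were replated at 150000 cells per well in 10% serum and 15% L cell medium. On the next day all wells were moved to DMEM alone, without serum or L cell medium, 1 h before the additions. The PBS arrays therefore stand for cells after 2 h and after 4 h in DMEM. Time since the medium change and time since the addition of PBS cannot be told apart, and cells from before the change were not analysed here. The other 6 arrays, cells given hepcidin and taken at 1 h and 3 h, also serve below to show which changes with time occurred with the peptide. The labels give 2 different concentrations for hepcidin.

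M-CSF, made by L cells, is the survival and growth signal of marrow-derived macrophages and acts through the receptor encoded by Csf1r. With serum and M-CSF such cells divide, build ribosomes and take up amino acids, and without them cells stop entering S phase over the following hours. ATF4 is the transcription factor of the integrated stress response, a program that senses scarce amino acids and misfolded protein and drives transporters, tRNA charging and enzymes of glutathione and serine metabolism. Genes of replication are switched on before S phase by the E2F factors, and nucleolar genes that build ribosomes respond to growth signals.

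Expression is given on the log2 scale, 1 probe set per gene, so 1 unit is a doubling. A gene passed, and rose or fell at 3 h, where limma's adjusted p across all named genes was under 0.05. The labels do not tell whether the 3 samples of a group are separate animals or cultures, so a p-value here reflects the spread among samples that may be technical repeats. The median of a PBS array lay between 4.86 and 4.93, arrays of a group correlated across probe sets with r from 0.995 to 0.997, and the median SE of a difference was 0.10. The 3 arrays per group limit the precision.

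All 23 macrophage identity genes lay above the array median. The lysosomal gene Cd68 stood at 13.02 ± 0.01 at 1 h and differed by -0.02 at 3 h. Adgre1, a macrophage surface marker, stood at 11.59 ± 0.09 at 1 h and 11.67 ± 0.08 at 3 h, and Csf1r at 11.37 ± 0.07 and 11.52 ± 0.06 (SD, n = 3). Limma called 0 of the 23. It also called 0 of 19 neutrophil, 18 dendritic cell, 16 lymphocyte, 9 erythroid, 18 fibroblast, 12 osteoclast and 13 mast cell markers. The mean level of the neutrophil list was 5.05 to 5.23 at 1 h and 4.90 to 5.09 at 3 h, and that of the fibroblast list 4.90 to 5.12 and 4.85 to 5.02. Of these markers the lymphocyte list had 2 and the erythroid list 0 above the array median. In RNA from whole wells, fewer cells of a kind and less RNA per cell cannot be told apart.

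Between 1 h and 3 h in PBS, 111 genes changed, 0.45% of those tested, with 51 higher (0.207%) and 60 lower (0.243%) at 3 h. Counts of called genes in the lists and families below are to be read beside these shares. Only 2 of the 111 lay below the array median at 1 h, so the share called among genes above it is higher than 0.45%. Most lists below hold mainly genes above it. The falls gathered genes of the amino acid stress response, DNA replication and the nucleolus, led by Chac1, a glutathione-degrading enzyme, at -1.71 on the log2 scale. The rises held genes of prostaglandin handling, 3 early response genes, 2 C-type lectin receptors and the iron exporter gene Slc40a1, led by the membrane protein gene Plxdc2 at 1.41. The changes were small. Only 5 genes passed and moved at least 2-fold, Plxdc2, Hpgd and Mirlet7c-1 up and Chac1 and Sesn2 down, and 69 of the 111 moved less than 1.5-fold. The median difference of all genes was -0.00, that of the rises 0.52 and that of the falls -0.55. In all 111 the groups did not overlap, and the same held for 17.7% of all genes.

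These calls rest on few arrays and on the spread estimated over all 12. The count was 33 without PBS 1 h replicate 1, 26 without replicate 2 and 30 without replicate 3, and 40, 30 and 23 without PBS 3 h replicates 1, 2 and 3. A fit of the 2 PBS groups alone called 7 genes: Chac1, Sesn2 and Srm fell, and Plxdc2, Mirlet7c-1, Npas4 and Slc40a1 rose. With all 12 arrays in the fit, 14 genes kept their call whichever PBS array was left out. They were the falls Chac1, Sesn2, Atf4, Slc3a2, Ifrd1, Mcm2, Timeless, Nop56, Tgm2 and St3gal5 and the rises Plxdc2, Ptgir, Npas4 and Slc40a1. Every other gene named below as passing lost its call without at least 1 array. Of the 111, 10 are predicted gene models or numbered clones, 6 higher and 4 lower, and are not named.

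**Figure D1:**
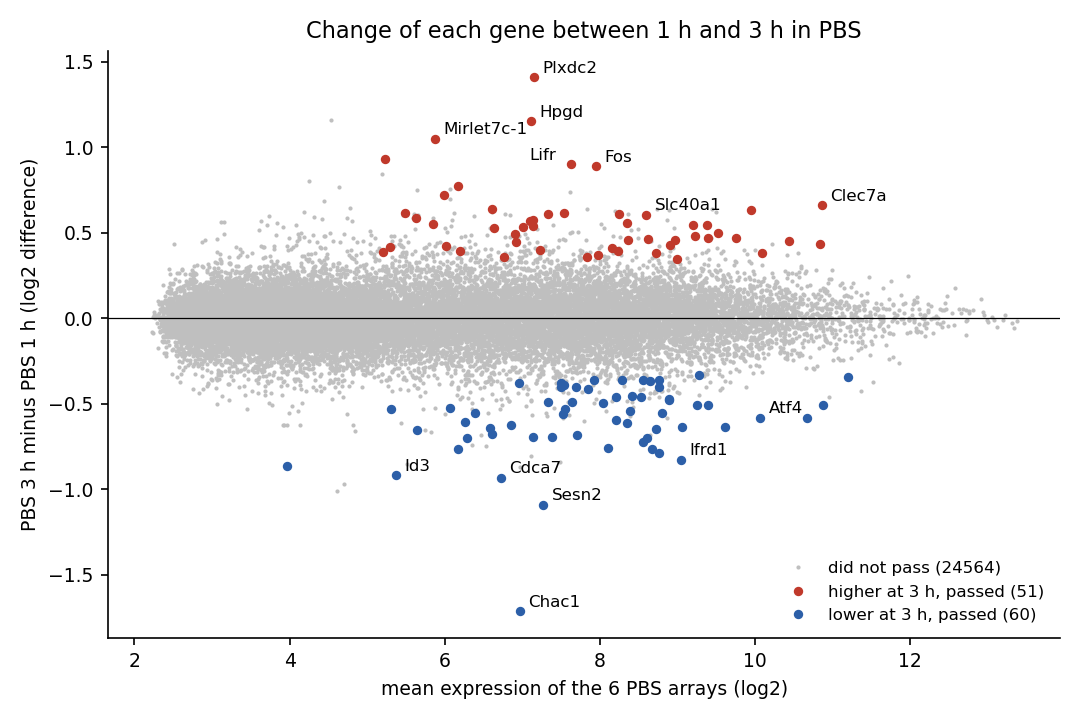
Each point is 1 of 24675 named genes, with its mean log2 expression over the 6 PBS arrays on the horizontal axis and the log2 difference, PBS 3 h minus PBS 1 h, on the vertical axis. Red points are the 51 genes that rose and blue points the 60 that fell. The passing genes have a median level of 7.95 at 1 h, against 4.88 for all genes.

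The amino acid stress response had the highest share of called genes among the 44 lists examined. Of its 28 genes 8 fell and 0 rose, 28.6% against 0.45% of all genes, and 5 or 6 of them passed with 1 PBS array left out. Chac1 measured 7.69, 7.77 and 8.00 in the 3 arrays of 1 h and 5.92, 6.17 and 6.24 in those of 3 h. The groups lie more than 1 log2 unit apart, and the fall was 3.28-fold (-1.71, SE 0.11, adjusted p = 8.03e-05). Sesn2, a leucine sensor that restrains mTORC1, stood at 7.86, 7.70 and 7.89 and then at 6.68, 6.79 and 6.71, a 2.13-fold fall (-1.09, SE 0.10, adjusted p = 0.00194). The other 2 sestrin genes did not pass, Sesn1 at 0.19 and Sesn3 at 0.23. Atf4 itself read 10.37, 10.36 and 10.34 at 1 h and 9.76, 9.87 and 9.69 at 3 h (-0.58, SE 0.07, adjusted p = 0.00464).

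Factors and transporters that act with or downstream of ATF4 fell as well. Ddit3, which encodes CHOP, went from 8.32, 8.56 and 8.59 to 7.54, 7.91 and 7.73 (-0.76, adjusted p = 0.0348). Trib3, a pseudokinase that binds ATF4, went from 7.59, 7.69 and 7.92 to 7.00, 6.99 and 7.12 (-0.70, adjusted p = 0.00971). In both genes the lowest array of 1 h lay above the highest of 3 h, by the smaller distance in Ddit3. The stress-induced chromatin protein gene Nupr1 changed by -0.63 (adjusted p = 0.0133). Slc3a2, the heavy chain shared by several amino acid exchangers, went from 10.91, 10.98 and 11.01 to 10.31, 10.40 and 10.44 (-0.58, SE 0.06, adjusted p = 0.00296). The glutamine and alanine carrier Slc38a2, at a level near 11, changed by -0.34 (adjusted p = 0.0483).

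Over the whole list the median was -0.04, and 13 members were higher at 3 h. The highest was the glycine carrier gene Slc6a9 at 0.52, which did not pass (adjusted p = 0.0852). The asparagine synthetase gene Asns differed by 0.01, the cystine carrier gene Slc7a11 by 0.03, the leucine carrier gene Slc7a5 by 0.03 and the serine synthesis gene Psat1 by -0.04, and none of them passed. The folate enzyme gene Mthfd2 stood at -0.37 (adjusted p = 0.0627). Among 19 aminoacyl-tRNA synthetase genes, several of them textbook ATF4 targets, limma called 0, although 17 were lower at 3 h, at a median of -0.08.

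Of the solute carrier list 4 of 26 fell and 0 rose, 15.4% called against 0.45% of all genes. The falls were Slc3a2, Slc38a2, Slc7a8, a light chain that pairs with the product of Slc3a2, and Slc20a1, a phosphate carrier. Slc3a2 and Slc38a2 also count in the stress list. With 1 PBS array left out, 1 or 2 genes of the list passed. The list is a selection: over all 371 Slc genes 4 fell and 2 rose, 1.62% called, at a median of -0.01. The 2 rises, Slc40a1 and Slc46a3, are not in the list. Slc7a8 went from 11.20, 11.00 and 11.19 to 10.64, 10.61 and 10.61 (-0.51, adjusted p = 0.00954), with the 3 h arrays nearly equal. Slc20a1 changed by -0.37 (adjusted p = 0.0323). In the list of ER chaperones and the unfolded protein response, 1 of 22 fell. It was Herpud1, a gene of ER-associated degradation, which went from 9.27, 9.03 and 9.17 to 8.52, 8.32 and 8.28 (-0.79, SE 0.10, adjusted p = 0.00913). The chaperone gene Hspa5, at -0.23, and the splicing-activated factor gene Xbp1, at -0.04, did not pass. Jdp2, a leucine zipper repressor of AP-1, changed by -0.55 (adjusted p = 0.0383).

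RefSeq promoters, 250 bases before to 50 bases after each gene's start, were matched by gene identifier for 84 of the 111 genes, 34 risen and 50 fallen. The letters TTGCATCA, the core of the composite site of C/EBP and ATF factors, were searched on both strands. They occurred in 4 of the 50 fallen genes (Chac1, Herpud1, Nupr1 and Jdp2), in 0 of the 34 risen genes and in 0.947% of all genes with a promoter. The motif was chosen after the calls had been seen, and a match is a description of the letters only. Of the 8 falls in the amino acid stress list only 2 hold the letters, Chac1 and Nupr1. The promoters of Chac1, Herpud1 and Nupr1 are shown as examples of fallen genes with the same letters before their start. Herpud1 is not in that list. The windows are the 250 bases before the start on build GRCm38.p6, from RefSeq, with the match in capitals. They are chr2:119350992-119351241 on the plus strand for Chac1, chr8:94386179-94386428 on the plus strand for Herpud1 and chr7:126625471-126625720 on the minus strand for Nupr1.
Chac1: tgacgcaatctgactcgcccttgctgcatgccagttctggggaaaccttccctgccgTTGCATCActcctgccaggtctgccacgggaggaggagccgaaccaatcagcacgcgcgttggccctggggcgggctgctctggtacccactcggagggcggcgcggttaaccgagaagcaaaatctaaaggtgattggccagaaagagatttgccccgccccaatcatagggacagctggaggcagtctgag
Herpud1: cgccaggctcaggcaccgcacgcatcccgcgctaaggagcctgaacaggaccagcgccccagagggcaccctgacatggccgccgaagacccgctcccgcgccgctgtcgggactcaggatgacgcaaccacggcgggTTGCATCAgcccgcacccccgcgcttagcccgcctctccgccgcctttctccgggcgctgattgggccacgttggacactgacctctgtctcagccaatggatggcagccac
Nupr1: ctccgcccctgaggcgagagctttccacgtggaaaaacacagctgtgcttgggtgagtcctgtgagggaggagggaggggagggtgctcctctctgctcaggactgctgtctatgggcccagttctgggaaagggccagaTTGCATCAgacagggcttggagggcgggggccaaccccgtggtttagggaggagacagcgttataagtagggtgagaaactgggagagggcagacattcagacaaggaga
The match begins 193 bases before the start in Chac1, 112 in Herpud1 and 110 in Nupr1. The cAMP response element TGACGTCA occurred in 2 of the 50 fallen and 1 of the 34 risen genes, against 2.57% of all genes.

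**Figure D2:**
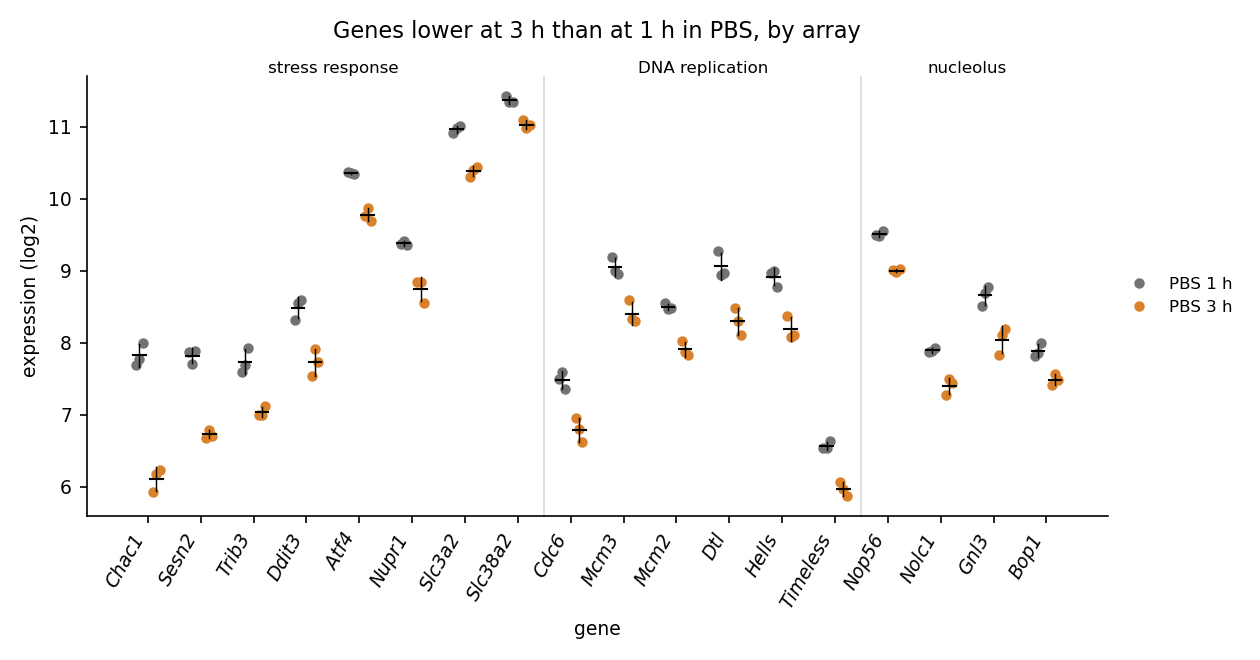
Log2 expression of 18 genes that fell, each PBS array as a point, 1 h in grey and 3 h in orange; horizontal bars are means of 3 arrays and vertical lines 1 SD. In every gene drawn the 3 arrays of 3 h lie below the 3 of 1 h, by most in Chac1 (-1.71) and by least in Slc38a2 (-0.34).

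Genes of DNA replication were lower at 3 h. In the cell cycle list 3 of 32 fell and 0 rose, 9.38% called against 0.45% of all genes. The falls were Cdc6, which loads the MCM helicase on origins, and the helicase subunit genes Mcm2 and Mcm3. Mcm2 stood at 8.55, 8.47 and 8.48 at 1 h and at 8.02, 7.87 and 7.83 at 3 h (-0.59, SE 0.07, adjusted p = 0.00464). Mcm3 changed by -0.65 (adjusted p = 0.0348). Cdc6 went from 7.50, 7.60 and 7.35 to 6.95, 6.80 and 6.62, so that 0.40 separated the nearest arrays (-0.69, SE 0.12, adjusted p = 0.0348). With 1 PBS array left out 1 or 2 genes of the list passed, and 7 fell in a fit whose prior spread follows the level (a trended prior) or that weights the arrays. The median of the list was -0.18, against -0.00 for all genes, and 24 of the 32 were lower at 3 h.

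The lower values lay mostly among the licensing and S phase genes of the list. Cdt1 differed by -0.47, Mcm4 by -0.43 and Mcm5 by -0.42, and Uhrf1 by -0.48; none passed, Mcm4 with an adjusted p of 0.0513. The mitotic genes Plk1 at 0.17, Top2a at 0.13, Mki67 at 0.07, Ccnb2 at 0.07, Cdk1 at 0.00 and Aurkb at -0.02 did not pass either. This split within the list was seen after the values and was not tested.

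In families assembled after the calls were known, genes of replication can be counted by role. All 9 MCM genes were lower at 3 h, at a median of -0.37, and 2 fell. All 16 genes of the replicative polymerases and clamp loader were lower, at a median of -0.20, and 1 fell, the polymerase delta gene Pold1 (-0.39, adjusted p = 0.038). Of 13 genes of origin recognition, GINS and Cdc45, 11 were lower and 0 passed. All 12 genes that copy chromatin through S phase were lower, at a median of -0.50, and 5 fell. These were Cdca7 (-0.93, adjusted p = 0.011), the ubiquitin ligase adaptor gene Dtl, the remodeller gene Hells, the chromatin assembly gene Chaf1b (-0.56, adjusted p = 0.0383) and the fork protection gene Timeless. Timeless went from 6.54, 6.53 and 6.63 to 6.06, 5.96 and 5.87 (-0.60, SE 0.07, adjusted p = 0.00416). Dtl went from 9.27, 8.94 and 8.96 to 8.49, 8.30 and 8.10 (-0.76, adjusted p = 0.014). The groups of Dtl spread more widely than those of Timeless but do not overlap.

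Srm, the gene of spermidine synthase, an enzyme of polyamine synthesis, went from 8.91, 8.93 and 9.04 to 8.23, 8.31 and 8.23 (-0.70, SE 0.10, adjusted p = 0.00954). The dCMP deaminase gene Dctd changed by -0.63, the purine synthesis gene Ppat by -0.49, the serine hydroxymethyltransferase gene Shmt1 by -0.53 and the mitochondrial serine carrier gene Sfxn1 by -0.33. These 4 were chosen after their values were seen and belong to no list counted here. The squalene epoxidase gene Sqle was the 1 called member of 20 cholesterol synthesis genes, at -0.53 (adjusted p = 0.0131), and 17 of the 20 were lower, at a median of -0.15.

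The letters TTTNNCGC, the core of E2F sites, were found in either direction in 9 of the 50 fallen genes with a promoter and in 1 of the 34 risen ones. Of all genes with a promoter, 7.14% hold them. The 9 were Cdc6, Cdca7, Dtl, Hells, Mcm3, Pold1, Nolc1, Ppat and Flcn, 6 of which are the replication genes described above. This motif too was chosen after the calls. The promoters of Cdc6, Cdca7 and Hells are shown as examples of replication genes that fell with the letters before their start. The windows, all on the plus strand of GRCm38.p6 and from RefSeq, are chr11:98907901-98908150, chr2:72475969-72476218 and chr19:38930740-38930989, with the match in capitals.
Cdc6: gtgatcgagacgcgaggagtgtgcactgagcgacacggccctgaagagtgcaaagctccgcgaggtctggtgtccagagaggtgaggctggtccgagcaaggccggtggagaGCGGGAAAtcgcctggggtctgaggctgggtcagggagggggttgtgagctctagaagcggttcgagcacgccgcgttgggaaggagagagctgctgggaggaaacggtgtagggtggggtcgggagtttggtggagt
Cdca7: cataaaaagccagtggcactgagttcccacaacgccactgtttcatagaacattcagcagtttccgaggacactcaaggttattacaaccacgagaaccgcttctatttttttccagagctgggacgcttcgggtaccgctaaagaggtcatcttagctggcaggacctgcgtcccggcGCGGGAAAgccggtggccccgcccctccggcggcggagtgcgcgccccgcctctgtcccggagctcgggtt
Hells: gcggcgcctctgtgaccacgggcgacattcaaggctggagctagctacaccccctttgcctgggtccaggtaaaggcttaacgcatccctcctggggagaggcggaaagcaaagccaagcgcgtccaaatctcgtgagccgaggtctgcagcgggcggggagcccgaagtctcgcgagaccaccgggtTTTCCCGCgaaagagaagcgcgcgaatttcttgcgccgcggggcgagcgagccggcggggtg
The match begins 138 bases before the start in Cdc6, 71 in Cdca7 and 62 in Hells, and it reads on the opposite strand in Cdc6 and Cdca7. The Myc-type E-box CACGTG was held by 6 of the 50 fallen and 3 of the 34 risen genes, against 9.09% of all genes, and the forkhead core GTAAACA by 1 and 0, against 3.57%.

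Nucleolar genes that build ribosomes were lower at 3 h almost throughout. Of 38 ribosome biogenesis genes 36 were lower, at a median of -0.21. In all 4 fell, Nop56, Nolc1, Gnl3 and Bop1, 10.5% called against 0.45% of all genes. With 1 PBS array left out 1 or 2 genes of the list passed, with a trended prior 8 did and with array weights 7. Nop56, a core protein of the particles that guide methylation of ribosomal RNA, read 9.50, 9.48 and 9.55 at 1 h and 9.01, 8.98 and 9.02 at 3 h (-0.51, SE 0.06, adjusted p = 0.00464). Each group of Nop56 spans less than 0.1 log2 units. The nucleolar phosphoprotein gene Nolc1 went from 7.87, 7.88 and 7.92 to 7.27, 7.49 and 7.43 (-0.49, adjusted p = 0.00989). The nucleostemin gene Gnl3 changed by -0.61 (adjusted p = 0.038) and Bop1, which processes the large subunit's RNA, by -0.40 (adjusted p = 0.0447). Fibrillarin, encoded by Fbl, stood at -0.51 without passing (adjusted p = 0.0846).

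Outside that list, the export adaptor gene of the large subunit, Nmd3 (-0.36), the nucleolar gene Nifk (-0.36) and the tRNA methyltransferase gene Mettl1 (-0.64) also fell. Of 78 mitochondrial ribosomal protein genes 2 fell, Mrpl12 at -0.54 and Mrps26 at -0.38, and 61 were lower, at a median of -0.06. Limma called 0 of 35 cytosolic ribosomal protein genes, whose median was -0.07 with 29 lower. It also called 0 of 107 small nucleolar RNA genes, whose median was 0.02.

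**Figure D3:**
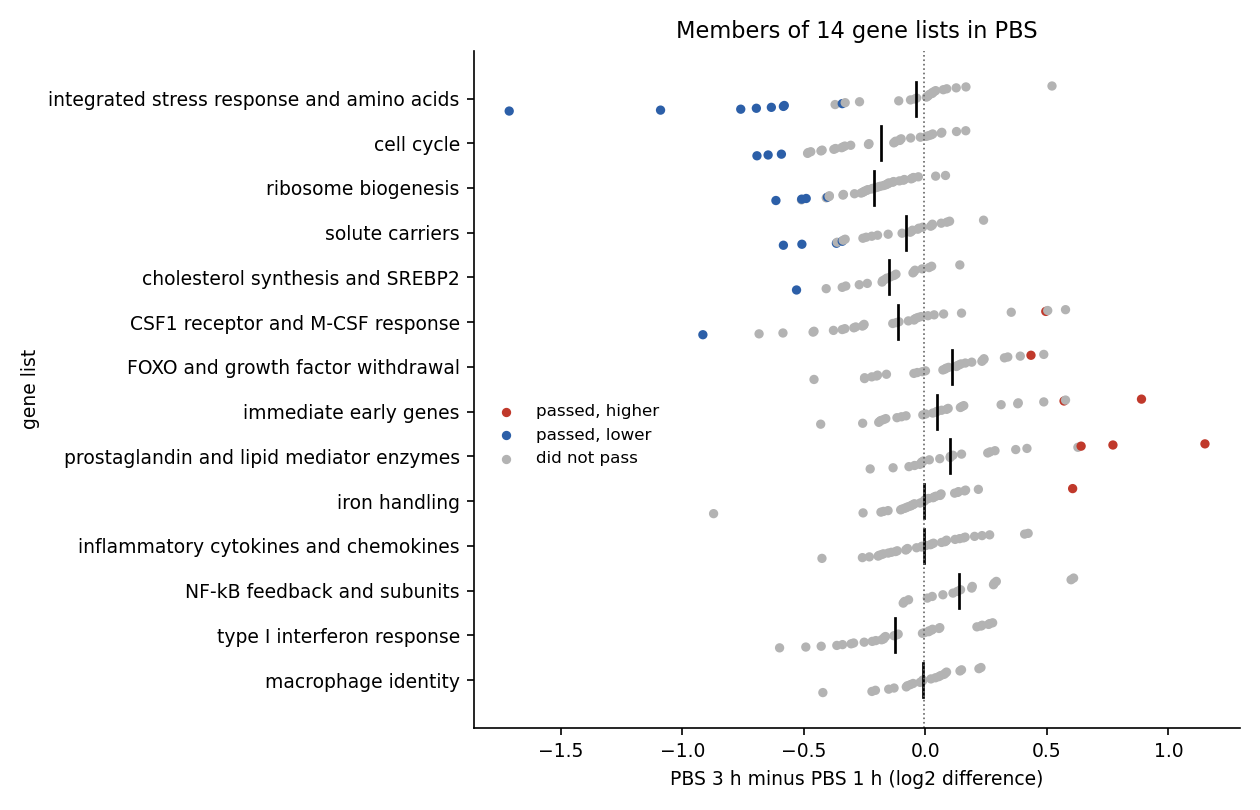
Each point is 1 gene of 14 lists, placed by its log2 difference, PBS 3 h minus PBS 1 h; red and blue mark genes that rose and fell, grey those that did not pass, and vertical bars list medians. The 8 falls of the amino acid stress list reach -1.71 while its median is -0.04, and the ribosome biogenesis list has a median of -0.21 with 36 of 38 members below 0.

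Of 30 genes listed for the M-CSF receptor and the response to M-CSF, 1 fell and 1 rose, 6.67% against 0.45% of all genes. In all 22 of the 30 were lower at 3 h, at a median of -0.11, and 0 or 1 passed with 1 PBS array left out. Id3, an inhibitor of helix-loop-helix factors, went from 5.59, 5.76 and 6.13 to 4.79, 5.08 and 4.86 (-0.92, SE 0.14, adjusted p = 0.0211), and the 3 other ID genes did not pass. Spred1, an inhibitor of the Ras to ERK pathway, went from 9.16, 9.34 and 9.33 to 9.65, 9.80 and 9.86 (0.50, adjusted p = 0.0242). Csf1r differed by 0.15 (adjusted p = 0.439), the ligand gene Csf1 by -0.26 (adjusted p = 0.467), Myc by 0.50 (adjusted p = 0.138) and Ccnd1, the cyclin of G1 entry, by -0.34 (adjusted p = 0.153). Among 30 FOXO and growth factor withdrawal genes 1 rose, the transcriptional coregulator gene Cited2 (0.43, adjusted p = 0.0348), and the median was 0.11. It lost its call with any 1 PBS array left out. Klf2 stood at 0.49 (adjusted p = 0.213), Tsc22d3 at -0.02 and Klf4 at -0.43, and none passed.

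Of 28 immediate early genes 2 rose and 0 fell, 7.14% called against 0.45% of all genes. The list as a whole did not move 1 way: its median was 0.05 and 11 members were lower at 3 h. With hepcidin 3 of the list rose and 7 fell. Fos, a subunit of AP-1, went from 7.14, 7.65 and 7.71 to 8.22, 8.45 and 8.50 (0.89, SE 0.14, adjusted p = 0.0234). The antiproliferative gene Btg2 went from 6.78, 6.73 and 6.94 to 7.51, 7.24 and 7.42 (0.57, adjusted p = 0.0174). Both lost their call without some arrays, and the list kept between 0 and 2 calls with 1 left out. Npas4, an activity-induced transcription factor outside the list, went from 5.18, 5.20 and 5.17 to 5.82, 5.77 and 5.81 (0.62, SE 0.07, adjusted p = 0.00464). Its arrays lie within 0.1 of each other in each group, at a level not far above the array median. Egr1 at -0.10, Jun at -0.26 and Dusp1 at 0.15 did not pass.

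Genes of prostaglandin handling were among the rises. Of 23 genes of prostaglandin and lipid mediator metabolism 3 rose and 0 fell, 13% called against 0.45% of all genes, at a list median of 0.10. With 1 PBS array left out 1 or 2 passed, and with a trended prior or array weights 5 did. Hpgd, which inactivates prostaglandins, went from 6.79, 6.34 and 6.49 to 8.09, 7.65 and 7.33, a 2.22-fold rise (1.15, SE 0.18, adjusted p = 0.0224). Its arrays of 3 h scatter widely, yet 0.54 separates the groups. Ptgs2, the inducible cyclooxygenase, went from 5.64, 5.82 and 5.90 to 6.52, 6.70 and 6.44 (0.77, SE 0.14, adjusted p = 0.0348). Ptgir, the prostacyclin receptor gene, went from 6.20, 6.33 and 6.35 to 6.96, 7.00 and 6.85 (0.64, SE 0.07, adjusted p = 0.00416). Of 9 prostanoid receptor genes it was the 1 that passed. Hpgd lost its call without some arrays, and Ptgs2 lost it whichever of the 6 was left out.

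Among inflammatory genes the calls were few. Limma called 0 of 34 cytokine and chemokine genes, 0 of 16 NF-kB feedback and subunit genes and 0 of 32 type I interferon genes. The medians of these lists were -0.01, 0.14 and -0.12, with 17, 13 and 12 members higher at 3 h. In the NF-kB list 2 genes rose with a trended prior and 1 with array weights. Tnf differed by 0.42 (adjusted p = 0.21), Il1b by 0.23 and Cxcl2 by 0.08. The effector and receptor list had 2 rises in 27, Ptgs2 and Clec5a, an activating lectin receptor (0.55, adjusted p = 0.0383). The beta-glucan receptor gene Clec7a, known as Dectin-1, went from 10.43, 10.46 and 10.71 to 11.13, 11.17 and 11.29 (0.66, SE 0.09, adjusted p = 0.00913). Clec7a and Clec5a were the 2 called of 34 C-type lectin receptor genes. Tgm2, transglutaminase 2 and like Clec7a a marker of alternative activation, went from 8.06, 7.91 and 8.18 to 7.35, 7.49 and 7.27 (-0.68, SE 0.08, adjusted p = 0.00464). Of 22 alternative activation genes only Clec7a and Tgm2 passed, in opposite directions, 9.09% against 0.45% of all genes. The median of that list was 0.03. The receptor genes Cd300lf (-0.68, adjusted p = 0.00989) and Havcr2, which encodes TIM-3 (-0.51, adjusted p = 0.0319), fell.

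Slc40a1, the gene of ferroportin, the iron exporter that hepcidin binds, rose in cells given only PBS. It read 8.29, 8.27 and 8.32 at 1 h and 8.90, 8.87 and 8.95 at 3 h, a 1.52-fold rise (0.61, SE 0.07, adjusted p = 0.00416). The arrays of each group lie within 0.1 of each other. It was the 1 called gene of 34 in the iron handling list, 2.94% against 0.45% of all genes, and the list median was -0.00. The member with the lowest difference was Lcn2, which encodes a siderophore-binding protein, at -0.87 (SE 0.50, adjusted p = 0.61). Its arrays read 7.81, 7.86 and 6.54 at 1 h and 6.85, 7.12 and 5.62 at 3 h, and the groups overlap. The transferrin receptor gene Tfrc differed by -0.01 (adjusted p = 0.994), the heme oxygenase gene Hmox1 by -0.18 and the ferritin gene Fth1 by -0.05.

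Plxdc2, the largest rise, went from 6.20, 6.44 and 6.69 to 7.87, 7.65 and 8.03, a 2.65-fold rise (1.41, SE 0.14, adjusted p = 0.00194). Lifr, the receptor gene of leukemia inhibitory factor, went from 7.33, 7.14 and 7.08 to 8.08, 8.31 and 7.85 (0.90, adjusted p = 0.0348). Cflar, which encodes the caspase-8 inhibitor c-FLIP, went from 7.13, 7.19 and 7.38 to 7.63, 7.97 and 7.95 (0.61, adjusted p = 0.0343). The groups do not overlap in any of these genes, most narrowly in Cflar. The scaffold kinase gene Cask, the phosphatase gene Cdc14a and Kctd12, a subunit of GABA-B receptors, rose by 0.61, 0.61 and 0.55. Zc3h6, a CCCH zinc finger gene, rose by 0.93 from below the array median (adjusted p = 0.045), the zinc finger gene Zfp759 by 0.72 (adjusted p = 0.0348) and the SUMO protease gene Senp7 by 0.57 (adjusted p = 0.0343). Apart from predicted models, the largest falls outside the lists and families above were those of Ifrd1, a transcriptional coregulator (-0.83, SE 0.09, adjusted p = 0.00296), and of Kdr, the gene of VEGF receptor 2 (-0.77, adjusted p = 0.00989). Arhgap24, which encodes a GTPase-activating protein of Rac, changed by -0.65 (adjusted p = 0.038). The fatty acid carrier gene Fabp4 changed by -0.64 (adjusted p = 0.0319) and the clock gene Arntl by -0.41 (adjusted p = 0.0343).

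**Figure D4:**
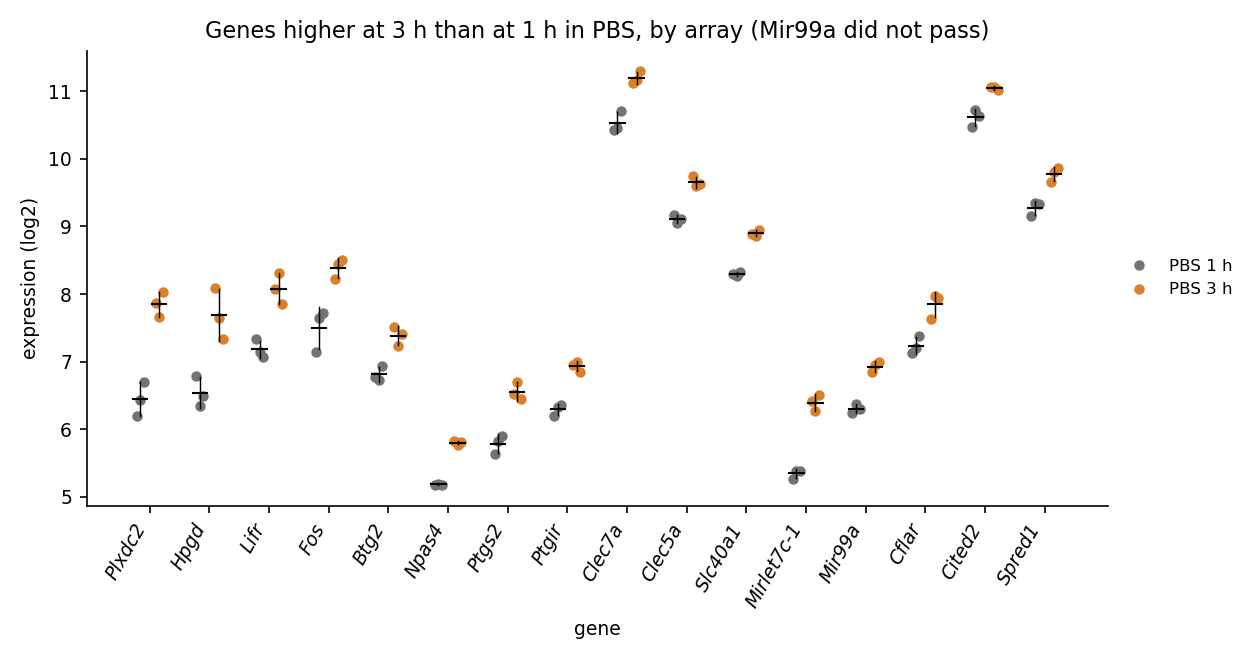
Log2 expression of 15 genes that rose and of Mir99a, which did not pass, each PBS array as a point, 1 h in grey and 3 h in orange; horizontal bars are means of 3 arrays and vertical lines 1 SD. In each gene drawn the 3 arrays of 3 h lie above the 3 of 1 h, by 1.41 on average in Plxdc2 and by 0.43 in Cited2.

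Of 547 microRNA genes on the array 2 rose, Mirlet7c-1 and Mir669n. That is 0.366%, no more than the 0.45% called among all genes. The mature sequences are shown with that of Mir99a, whose hairpin neighbours Mirlet7c-1 on chromosome 16; they come from RefSeq, build GRCm38.p6, with the seed, bases 2 to 8, in capitals. The 3 seeds differ, and the seed of let-7c-5p is shared by 13 mouse microRNA genes of the RefSeq table.
let-7c-5p: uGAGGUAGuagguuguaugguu
miR-99a-5p: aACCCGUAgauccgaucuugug
miR-669n: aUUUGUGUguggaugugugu
Mirlet7c-1 went from 5.26, 5.39 and 5.38 to 6.41, 6.26 and 6.51, a 2.07-fold rise (1.05, SE 0.17, adjusted p = 0.0211). Mir99a went from 6.24, 6.37 and 6.30 to 6.84, 6.94 and 6.99 (0.62, SE 0.12, adjusted p = 0.0578) and did not pass, although its groups do not overlap. Mir125b-2, the microRNA gene that shares a cluster with both, lay below the array median and differed by -0.02 (adjusted p = 0.983). Mir669n changed by 0.56 (adjusted p = 0.0126), and Slc30a7, the gene in which it lies, by 0.08 (adjusted p = 0.779). A whole-transcript array cannot tell a microRNA's primary transcript from its mature form. Mirlet7c-1 lost its call in the fit of all groups whichever of the 6 PBS arrays was left out.

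The hepcidin arrays show which of these genes also changed between 1 h and 3 h in cells given the peptide. The differences come from other arrays, but the p-values of both comparisons use the same spread of each gene, estimated over all 12 arrays. The 2 sets of calls are therefore not independent. With hepcidin limma called 1246 genes, 5.05% of those tested, 601 higher (2.44%) and 645 lower (2.61%) at 3 h. Of the 51 genes that rose in PBS, 20 also rose with hepcidin, 1 fell and 30 did not pass. Of the 60 that fell in PBS, 32 also fell, 2 rose and 26 did not pass. The 52 genes called in the same direction are 46.8% of the PBS calls and 4.17% of the hepcidin calls. With or without a call, 39 of the 51 rises were higher and 55 of the 60 falls lower at 3 h with hepcidin, while 55.0% of all genes had the same sign in both. The median change with hepcidin was 0.25 for the rises and -0.36 for the falls.

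Plxdc2 changed by 1.42 with hepcidin, against 1.41 in PBS, and Slc40a1 by 0.56 (adjusted p = 4.15e-04), against 0.61. Chac1 changed by -1.34 (adjusted p = 3.59e-05), Mirlet7c-1 by 1.17 (adjusted p = 0.00118) and Mir99a by 1.32 (adjusted p = 6.75e-05). Replication genes fell in both arms: with hepcidin Cdc6 changed by -1.16, Dtl by -1.21, Mcm3 by -0.82, Mcm2 by -0.56 and Timeless by -0.65, and 6 of 9 MCM genes fell. Among ribosome biogenesis genes 1 of 38 fell with hepcidin, and the list median was -0.08. Nop56 stood at -0.21, Nolc1 at -0.21, Gnl3 at -0.28 and Bop1 at 0.06 there, without passing. Of the stress genes Trib3 (-0.10), Nupr1 (-0.11) and Ddit3 (-0.35) did not pass with hepcidin. A gene that passes in 1 arm and not in the other is not thereby shown to differ between them.

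The difference between both changes over time was tested in limma as an interaction, which uses the same PBS arrays that chose these genes. It passed for 254 of all genes, 1.03%. Hpgd changed by -0.02 with hepcidin, and the difference from its PBS rise missed the threshold (-1.17, SE 0.23, adjusted p = 0.0587). For Lifr, at -0.14 with hepcidin, the difference was -1.04 (adjusted p = 0.051), and for Tgm2, at -0.15, it was 0.54 (adjusted p = 0.0533). The difference passed for 3 genes that were called in opposite directions. Herpud1 changed by -0.79 in PBS and by 0.63 with hepcidin (difference 1.42, adjusted p = 7.65e-04). Jdp2 changed by -0.55 and 0.60 (difference 1.15, adjusted p = 0.00256), and the peroxisomal transporter gene Abcd2 by 0.43 and -0.73 (difference -1.16, adjusted p = 2.77e-04). With hepcidin Herpud1 and Jdp2 thus rose and Chac1 fell, and the promoters of all 3 hold the letters TTGCATCA.

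**Figure D5:**
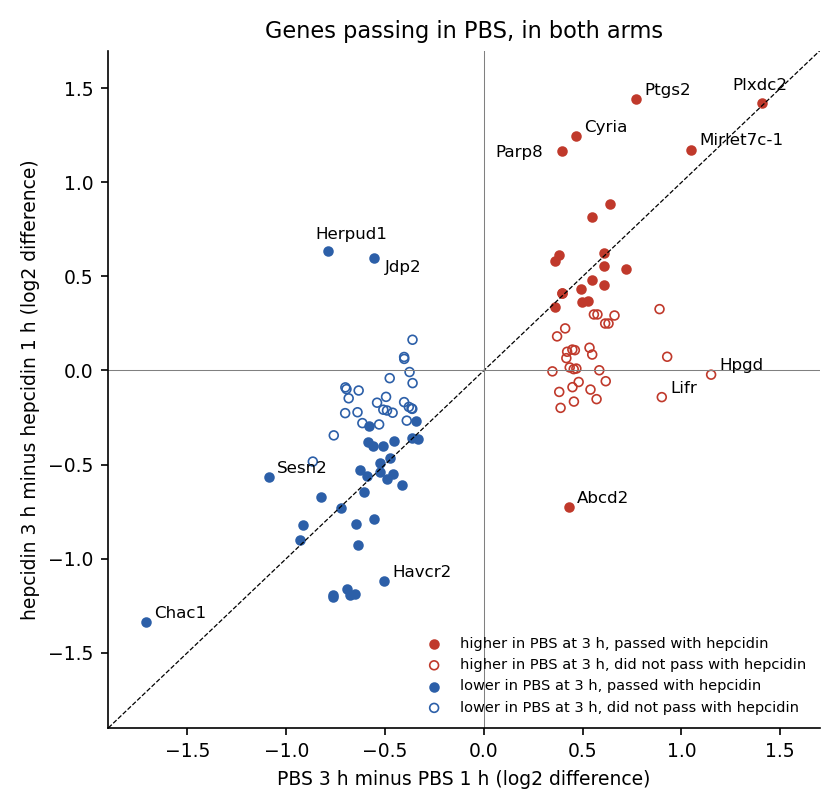
Each point is 1 of the 111 genes that passed in PBS, with its log2 difference between 3 h and 1 h in PBS on the horizontal axis and with hepcidin on the vertical axis; the dashed line marks equal values and filled points also passed with hepcidin. Plxdc2, Chac1 and Mirlet7c-1 lie near the line, Hpgd and Lifr near 0 on the vertical axis, and Herpud1, Jdp2 and Abcd2 in the opposite quadrants.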

How the data were processed

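Total RNA of each sample was hybridized to a whole-transcript array, per the labels' protocols. For every array the authors deposited 1 normalized value per probe set. RMA and Partek are named, without versions, in the submitters' processing notes, and no label writes the log base; the deposited values were read as log2 values, the scale RMA returns. Of 25429 probe sets, 24675 had a gene symbol, 1 per gene, and were tested without a filter on level; 754 were unnamed.

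Differences were fitted in R 4.3.3 with limma 3.58.1 (lmFit, eBayes) as 4 group means over 12 arrays, with 8 residual and 4.11 prior degrees of freedom. P-values were adjusted across genes by Benjamini and Hochberg. The procedure was tested on simulated data with independent normal noise in every array. That test cannot show how the procedure performs where samples share a replicate effect.

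The comparison and the gene lists were chosen with earlier results of these data known. By rule, the text names the 20 passing genes with the largest rise and the 20 with the largest fall, up to 4 passing members of each of 44 lists and fixed genes such as Csf1r and Myc; other genes were chosen after their values were seen. RefSeq tables gave names, classes, promoters and microRNAs. The array files name no genome build, so promoters were matched by gene identifier, and those printed were looked up by symbol.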

Additional observations from a re-analysis of the deposited data

Results flagged for a closer look

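For 18 of the named and passing genes the change from 1 h to 3 h differed between hepcidin and PBS in limma's interaction test, which shares the PBS arrays that chose most of them. Values are the hepcidin change minus the PBS change on the log2 scale. Besides Herpud1 (1.42), Jdp2 (1.15) and Abcd2 (-1.16), genes that rose in PBS and did not pass with hepcidin differed, namely Npas4 (-0.67, adjusted p = 0.00962), Btg2 (-0.72, adjusted p = 0.0155) and the lysosomal carrier gene Slc46a3 (-0.62, adjusted p = 0.00902). The same held for Adamts6 (-0.59, adjusted p = 0.0125), Adgre5, which encodes CD97 (-0.54, adjusted p = 0.0231), Bin2 (-0.50, adjusted p = 0.033), Irf2bp2 (-0.54, adjusted p = 0.0369) and Nlrp1c-ps (-0.64, adjusted p = 0.0435). Cyria (0.78, adjusted p = 0.00134) and Parp8 (0.77, adjusted p = 0.00408) rose further with hepcidin, and Havcr2 fell further (-0.61, adjusted p = 0.0349). Ezr, which encodes ezrin, fell in PBS and stood at 0.16 with hepcidin (difference 0.52, adjusted p = 0.018). Among genes that did not pass in PBS, the difference was -1.41 for Angptl4 (adjusted p = 0.00983), 1.15 for Il1b (adjusted p = 0.012) and -0.92 for Tnf (adjusted p = 0.0296).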

How the results depend on the processing

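The number of genes changed in PBS, 111, was 7 with only the 2 PBS groups, 319 with a trended and robust prior, 333 among genes above the median mean, 64 after median centring and 285 with array weights. It was 248 at an adjusted p under 0.1, 27 under 0.01, 42 with a fold of at least 1.5, and 23 to 40 with 1 array left out. It stayed within 1.5 times with an unmoderated model (125), quantile normalization again (147) and all probe sets (114). The hepcidin count, 1246, was 616 with only its 2 groups, 592 under 0.01, 407 with a fold of at least 1.5 and 721 to 1042 with 1 array left out. The count of the interaction, 254, was 433 with the trended prior, 412 above the median mean, 391 at 0.1, 81 at 0.01 and 141 to 234 with 1 array left out; these alternatives for it were added after seeing the data. With the replicate number as a block the PBS count was 240, of which 109 are among the 111; falls numbered 11 rather than 3 in the cell cycle list, 6 rather than 4 in the ribosome biogenesis list and 4 rather than 1 in the M-CSF list. Deviations of same-numbered PBS arrays correlated at 0.25, 0.04 and 0.16, and PBS 3 h replicate 2 correlated best with another number. These correlations, taken in PBS arrays only, neither establish nor exclude a pairing, and the main fit used none. Asf1b, picked after its values were seen, was highest in replicate 1 and lowest in replicate 3 in all 4 groups. Over the 70 genes that the naming rule chose, 940 values kept their side of the threshold under the alternatives and 320 lost it. Of the 70 genes 54 passed in the main fit, and all 320 losses were theirs. The 940 also include every value of the genes that did not pass. Among genes that passed, 0 reversed direction. Their groups do not overlap, so leaving out an array or changing the prior, weights or threshold could not have reversed them. A gene that did not pass was counted as kept even where its sign changed. With 1 PBS array left out, Egr1 for example ranged from -0.25 to 0.15. The cause of these differences was not tested. Signal near background limits genes below the array median.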
